A study of Mus musculus with 10 samples.

Results

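Endothelial cells line the blood and lymph vessels of the spleen, and the genes Calcrl, Cd34, Cdh5, Emcn, Eng, Erg, Esam, Flt1 and Flt4 are commonly read as their markers. These 9 genes were followed in spleen CD3+ T cells sequenced in bulk, a preparation isolated for T cells and not for vessels. They were chosen by name from a list of 10 endothelial genes that was drawn up with earlier results of these data known, and they are 9 of the 20617 genes in the table. The tenth, Cldn5, was not analysed here. Whether those earlier results included a comparison of the treatment groups is not given in the sources used here. The rows holding the members' values were selected on mean levels over all 10 libraries, so that the levels are given as a description.

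The mice were Nf1flox/mut; GFAP-Cre (Nf1OPG) animals, a model of the optic nerve glioma of neurofibromatosis type 1 in which all cells carry a germline Nf1 mutation and the remaining Nf1 copy is lost in GFAP-expressing neuroglial progenitors. The 5 OVA libraries (replicates 6 to 10) came from mice sensitized by weekly intraperitoneal injections of 0.5 mL chicken-egg ovalbumin at 16 µg/mL in aluminum hydroxide at 2 mg/mL and then challenged with ovalbumin through the nose, which induces experimental asthma. The 5 PBS libraries (replicates 1 to 5) came from vehicle-treated mice of the same genotype. Treatment ran from week 4 to week 6 of life, and the age at which the T cells were taken is not given in the sources used here. Each replicate was taken as 1 mouse, and whether mice were pooled is not given either. Both groups share the Nf1 genotype, and no wild-type library was analysed here. Per the paper, spleens were dissociated, red blood cells were lysed, and CD4+ and CD8+ T cells were isolated with CD4 and CD8a kits. Its methods do not describe separately how the sequenced CD3+ T cells were isolated.

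The genes divide by role. Calcrl, Flt1, Flt4 and Eng encode receptors through which endothelial cells sense peptide hormones, vascular endothelial growth factors and members of the transforming growth factor beta family. Cdh5 and Esam encode adhesion molecules that hold neighbouring endothelial cells together. Cd34 and Emcn encode heavily glycosylated sialomucins of the cell surface, and Erg encodes an ETS family transcription factor that maintains endothelial identity. Several of them are not restricted to vessels, since Cd34, Esam, Erg and Eng are also known from blood stem and progenitor cells. Which cells the reads of these genes came from, T cells included, was not tested.

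Reads were recovered from the deposited normalized counts, which are whole multiples of the value of 1 read, and came to between 6835696 and 29915782 per library. A read was worth 2.77 normalized counts in PBS replicate 3, the library with the fewest reads, and between 0.626 and 1.201 in the others. The floor of detection was set at 3 reads, which is 8.31 normalized counts in PBS replicate 3 and 1.88 to 3.60 elsewhere and accounts for counting error alone. The T cell label held in every library: of 15 T cell genes, 14 had mean levels between 678 and 23833 normalized counts per kilobase of exons, and all 15 were above 3 reads in all 10 libraries. The exception in level was Il7r, at 11.2, whose row was placed with the lowest probability of that list, 0.908. Markers of other spleen cells were also present, and are given per group beside the comparison.

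The names in the table stand several rows below the values that belong to them, by 3 rows for Calcrl, Cd34 and Cdh5 and by 7 rows for Emcn, Eng, Erg, Esam, Flt1 and Flt4. An alignment of the rows with the annotation of the names, made without the treatment groups, gave the same distance for all 9 genes, with probabilities between 0.986 for Emcn and 0.9999 for Flt1. Abundant genes next to each name in the alphabet gave the same distances. The 15 neighbours of Cd34, which include Cd3d, Cd3e and Cd4, had a mean log2 level of 12.88 at 3 rows, against 9.99 at the next best distance. The 11 neighbours of Flt1 and Flt4 had a mean of 10.53 at 7 rows, against 8.16 at the next best distance and 4.95 at the row that carries the name.

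**Figure D1:**
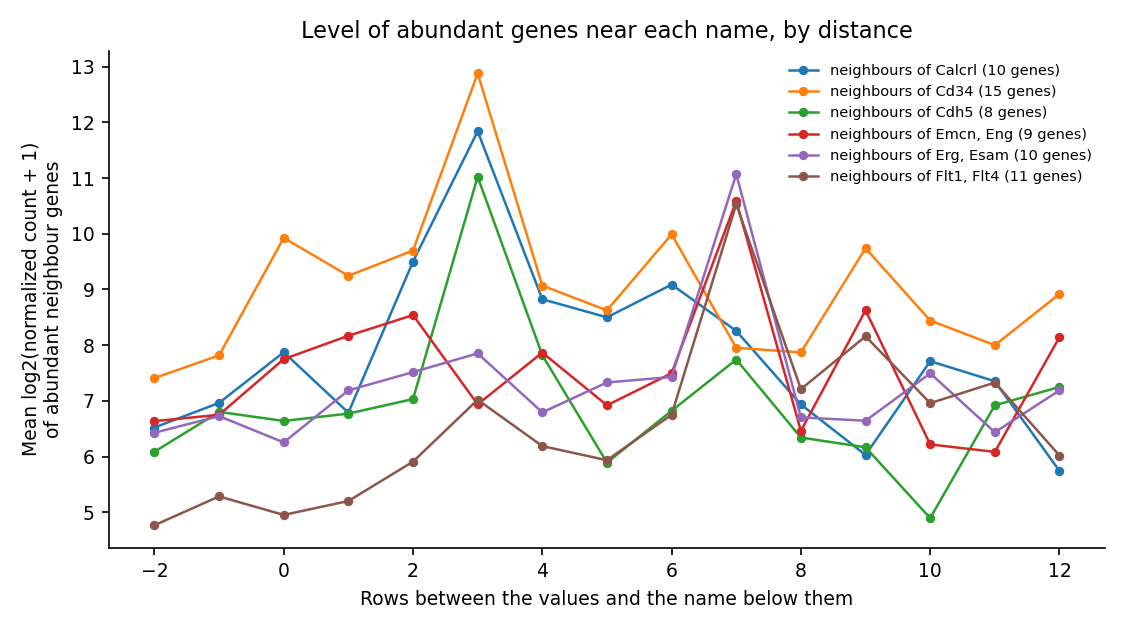
Mean log2(normalized count + 1) over all 10 libraries (y axis) of abundant genes listed next to the endothelial genes, by the number of rows between the values and the name (x axis), with 1 line per group of neighbours. The 3 groups around Calcrl, Cd34 and Cdh5 peak at 3 rows and the 3 groups around Emcn and Eng, Erg and Esam, and Flt1 and Flt4 peak at 7 rows.

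Calcrl, Cd34 and Eng were present in all 10 libraries and made up nearly all reads of the 9 genes, with 10305, 2768 and 1163 of 14702 reads. Calcrl alone held 70.1% of them. The members with the fewest reads, Cdh5, Emcn, Flt1 and Flt4, were close to the floor and together had 157 reads over the 10 libraries. They were grouped after their levels were seen. Esam was above 3 reads in all 10 libraries and Erg in 8, whereas Cdh5 was above 3 reads in 6, Emcn and Flt1 in 4 each, and Flt4 in 3. In a bulk preparation, fewer cells of a type and less RNA per cell cannot be told apart, so these levels do not give a number of endothelial cells.

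Levels of different genes were compared per kilobase of exons. Calcrl was highest at 196 ± 58.7 normalized counts per kilobase (SD over 10 libraries), above Cd34 in 10 of 10 libraries without overlap of their ranges. Cd34 at 34.2 ± 12.6 and Eng at 26.3 ± 9.02 overlapped, Cd34 being the higher in 7 libraries. Eng was above Esam in all 10 libraries, with no overlap. Esam at 5.92 ± 4.13, Erg at 3.46 ± 2.48 and Cdh5 at 1.21 ± 1.07 each overlapped the gene after it. Emcn at 0.430 ± 0.549, Flt1 at 0.401 ± 0.586 and Flt4 at 0.366 ± 0.590 did not separate from each other, their SDs being larger than their means. All 9 genes were below the 14 abundant T cell genes, the lowest of which, Thy1, stood at 678.

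**Figure D2:**
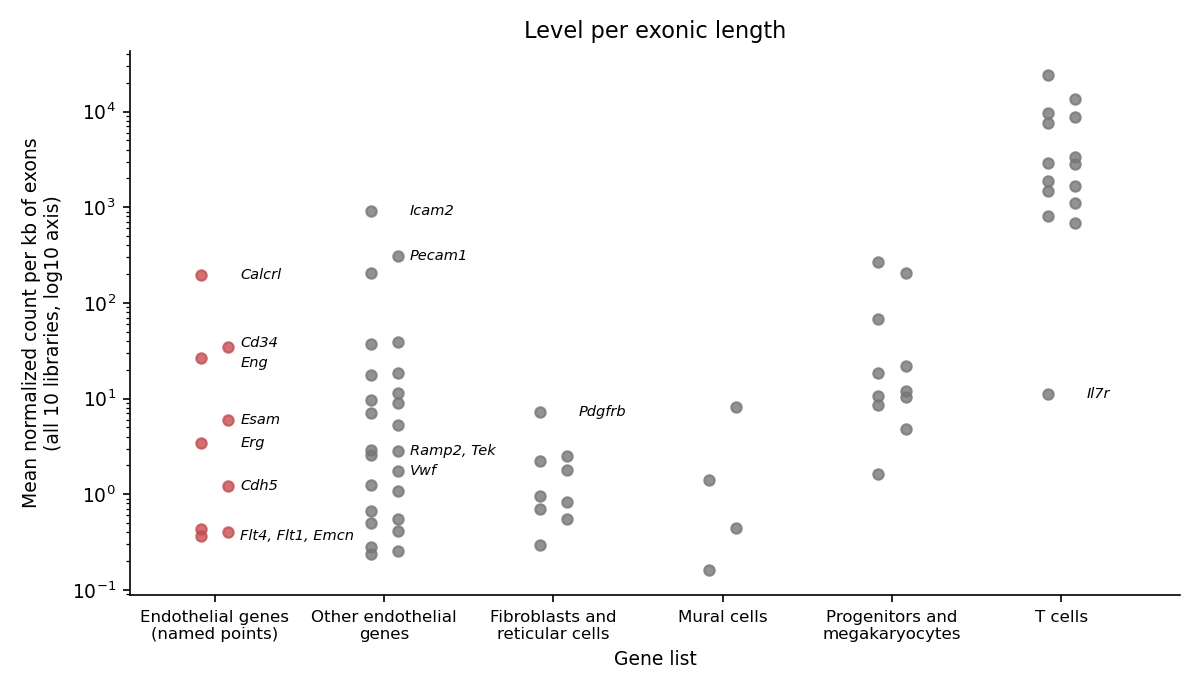
Mean normalized count per kilobase of exons over all 10 libraries (y axis, log10 scale) for the 9 endothelial genes (red, each named) and for genes of 5 other lists (grey), 1 point per gene. Calcrl lies among the highest progenitor genes, and Cdh5, Emcn, Flt1 and Flt4 lie in the range of the fibroblast and mural cell genes, far under the 14 abundant T cell genes.

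**Figure D3:**
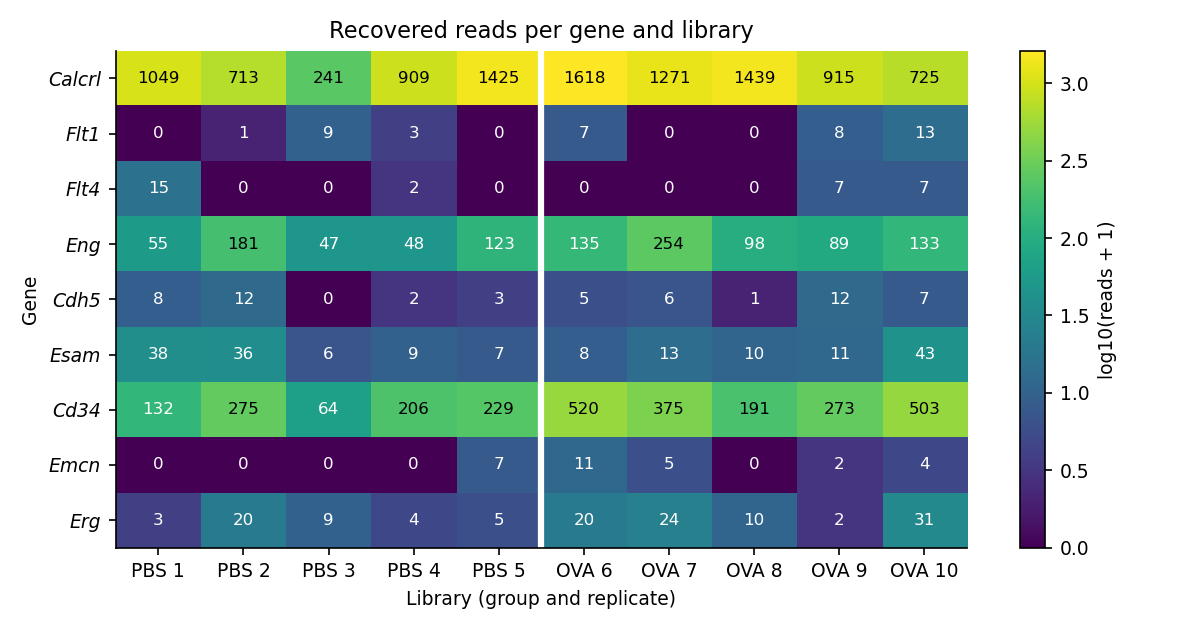
Recovered reads of each gene (rows) in each library (columns, PBS replicates 1 to 5 and OVA replicates 6 to 10 separated by the white line), with the number in each cell and its colour on a log10(reads + 1) scale. Calcrl, Cd34 and Eng have at least 47 reads in every library, whereas Cdh5, Emcn, Flt1 and Flt4 do not exceed 15 reads in any.

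The promoters of the genes were read to show what they share besides their names. Windows of 300 bases, from 250 bases before to 50 bases after a RefSeq start on GRCm38.p6, were found for 7 of the 9 genes, with Cdh5 and Esam missing. They were searched on both strands for CAGGAAG and CCGGAAG, core motifs of ETS factors such as Erg. The 7 genes have 9 windows, 3 of them of Erg, and 4 of the 9 windows held a match (1 each of Calcrl, Cd34, Emcn and Erg), beside 20.9% of all 32851 promoter windows. Calcrl and Cd34, the members with the most reads, and Emcn, with the fewest, each hold 1 match. Their windows are given from 5′ to 3′ on the strand of the gene, with the match in capitals, at chr2:84425217-84425516 (minus strand) for Calcrl, chr1:194938571-194938870 (plus strand) for Cd34 and chr3:137340828-137341127 (plus strand) for Emcn. CTTCCTG is CAGGAAG read on the opposite strand. A match is a description of these letters, not evidence of binding.
Calcrl: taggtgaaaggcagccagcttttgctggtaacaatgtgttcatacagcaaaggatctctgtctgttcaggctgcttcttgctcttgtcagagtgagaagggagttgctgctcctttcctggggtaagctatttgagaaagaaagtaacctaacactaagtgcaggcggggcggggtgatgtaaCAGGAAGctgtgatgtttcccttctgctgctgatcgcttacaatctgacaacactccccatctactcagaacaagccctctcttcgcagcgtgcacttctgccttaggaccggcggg
Cd34: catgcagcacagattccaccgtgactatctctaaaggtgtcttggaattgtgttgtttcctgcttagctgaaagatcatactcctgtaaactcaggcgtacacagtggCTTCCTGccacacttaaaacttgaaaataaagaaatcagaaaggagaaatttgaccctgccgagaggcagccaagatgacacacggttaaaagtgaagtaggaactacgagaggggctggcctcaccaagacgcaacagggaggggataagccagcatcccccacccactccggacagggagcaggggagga
Emcn: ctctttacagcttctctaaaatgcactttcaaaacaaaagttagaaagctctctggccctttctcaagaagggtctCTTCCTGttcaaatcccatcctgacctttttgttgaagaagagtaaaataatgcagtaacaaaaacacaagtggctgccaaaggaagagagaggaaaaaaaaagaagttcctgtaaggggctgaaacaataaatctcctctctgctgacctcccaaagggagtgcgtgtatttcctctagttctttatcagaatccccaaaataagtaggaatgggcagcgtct

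The question the series poses is what OVA treatment changes in spleen T cells, and the endothelial genes were compared between the 5 OVA and the 5 PBS libraries on log2(normalized count + 1) with limma, fitted across the 20249 genes whose mean reached 1 normalized count, which all 9 genes did. None of the 9 genes differed after Benjamini-Hochberg adjustment over all genes, as was the case for nearly all genes tested (1 called, or 0.00494%). The adjusted p-values of limma ran from 0.414 for Cd34 to 0.987 for Flt4. Without adjustment, 1 of the 9, Cd34, had a limma p under 0.05, against a background of 9.77% of all genes, so that 1 in 9 is near the background. On the recovered reads, edgeR and DESeq2 each called 0 of the 9 after adjustment. Here edgeR called 0.00988% of the 20249 genes, and DESeq2 0.894% of the 18678 genes for which it gave an adjusted p. Without adjustment each called 1 of the 9, again Cd34, beside 9.06% of all genes with edgeR and 9.27% with DESeq2. In no gene did all OVA libraries lie above all PBS libraries, which 1.42% of all genes did, and in none did they all lie below, which 0.356% did. The log2 fold change of OVA against PBS was positive for 8 genes and negative for Esam, with a median of 0.37, beside a median of 0.04 over all genes tested. This median is a description and has no test. Over the alternatives of filter, scaling, test and left-out library, it ran from 0.09 without OVA replicate 9 to 0.49 without PBS replicate 2. Among these it was 0.18 without PBS replicate 1, 0.25 without PBS replicate 4, 0.19 with edgeR and 0.48 with a pseudocount of 0.1.

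**Figure D4:**
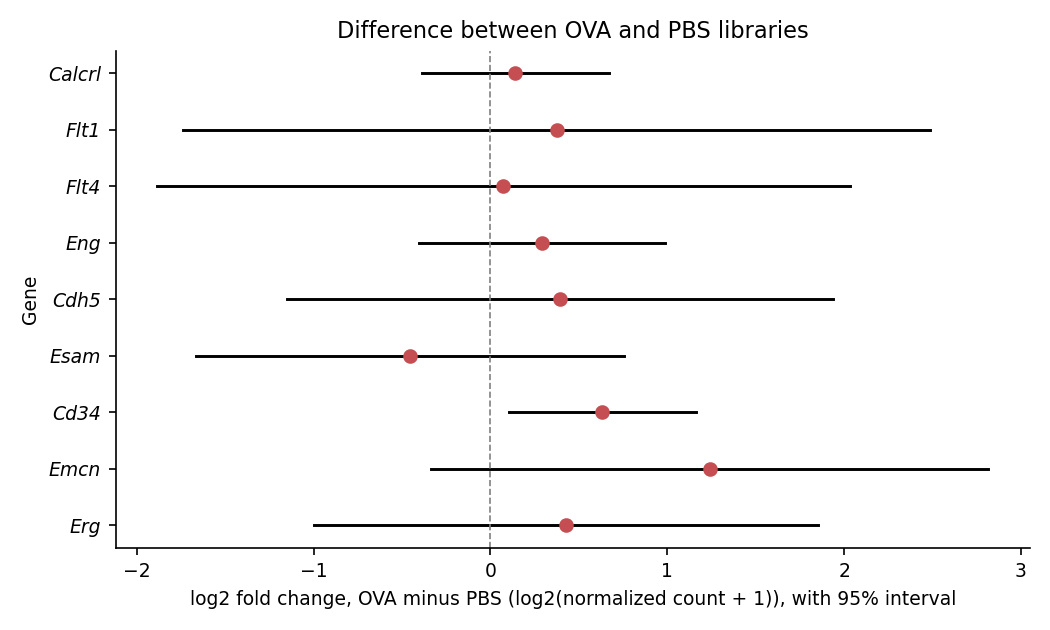
Log2 fold change of OVA minus PBS on log2(normalized count + 1) (x axis, points) with its 95% interval from limma (lines), for each of the 9 genes (y axis). The interval of Cd34, from 0.10 to 1.16, is the only one of the 9 that leaves out 0, and those of Flt1 and Flt4 are the widest.

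The receptors are taken first. Calcrl encodes the calcitonin receptor-like receptor, which with a RAMP partner binds adrenomedullin or calcitonin gene-related peptide, and lies on the minus strand at chr2:84330626-84425412 (GRCm38). It was measured at 983, 614, 667, 978 and 1286 normalized counts in PBS replicates 1 to 5. In OVA replicates 6 to 10 it was at 1213, 796, 1364, 1099 and 571. The highest and the lowest library both belong to OVA, so that the groups overlap fully. The means were 906 ± 273 (SD, n = 5) in PBS and 1008 ± 322 (SD, n = 5) in OVA. The log2 fold change of Calcrl was 0.14 (SE 0.25), with a 95% interval from -0.39 to 0.67, an exact two-sided permutation p of 0.635 and a limma adjusted p of 0.885. On the scale of the fold, this interval runs from 0.763 to 1.59, so that a change of Calcrl beyond these bounds lies outside it.

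Flt1 and Flt4 encode receptors of vascular endothelial growth factors, Flt4 being best known from lymphatic vessels, and both were near the floor in most libraries. Flt1, on the minus strand at chr5:147561604-147726012, had 0, 1, 9, 3 and 0 reads in the PBS libraries and 7, 0, 0, 8 and 13 in the OVA libraries. The 9 reads of PBS replicate 3, the shallowest library, count as 24.9 normalized counts and are the highest level of the gene. The means of Flt1 were 5.80 ± 10.8 (SD, n = 5) and 5.02 ± 4.97 (SD, n = 5) normalized counts in PBS and OVA, so that the mean was lower in OVA whereas the log2 fold change was 0.37 (SE 0.99, 95% interval -1.74 to 2.48). Flt4, on the plus strand at chr11:49609263-49652740, had 15, 0, 0, 2 and 0 reads in PBS and 0, 0, 0, 7 and 7 in OVA. Nearly all of its PBS reads stem from replicate 1, and it had 0 reads in 6 of the 10 libraries. The means of Flt4 were 3.24 ± 6.12 (SD, n = 5) and 2.78 ± 3.95 (SD, n = 5), and its log2 fold change was 0.07 (SE 0.92, 95% interval -1.88 to 2.03). A change of either receptor of the size of its interval was not detectable at this depth, and the sign of both log2 fold changes turned in alternative settings given in the closing section.

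Eng encodes endoglin, a coreceptor for BMP9 and related ligands, and lies on the plus strand at chr2:32646595-32682670. It was at 51.5, 156, 130, 51.6 and 111 normalized counts in PBS replicates 1 to 5 and at 101, 159, 92.9, 107 and 105 in OVA replicates 6 to 10. PBS replicates 1 and 4 were the lowest, and 4 of the 5 OVA libraries lay within a narrow band inside the PBS range. The means were 100.02 ± 47.0 (SD, n = 5) in PBS and 113 ± 26.3 (SD, n = 5) in OVA, and the log2 fold change of Eng was 0.29 (SE 0.33, 95% interval -0.41 to 0.99). The library kit does not mark strand, and Fpgs overlaps Eng on the opposite strand, so that reads of the shared part cannot be told apart.

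Among the adhesion molecules, Cdh5 encodes VE-cadherin, the defining cadherin of endothelial junctions, and lies on the plus strand at chr8:104101625-104144512. It had 8, 12, 0, 2 and 3 reads in the PBS libraries and 5, 6, 1, 12 and 7 in the OVA libraries. Its highest level, 14.4 normalized counts, was in OVA replicate 9, and 4 libraries of both groups were at or under 3 reads. The means of Cdh5 were 4.54 ± 4.24 (SD, n = 5) and 5.67 ± 5.15 (SD, n = 5) normalized counts, with a log2 fold change of 0.39 (SE 0.72, 95% interval -1.15 to 1.94). The gene Gm29682 overlaps Cdh5 on the opposite strand, and reads of the shared part cannot be told apart. Esam, which encodes a tight junction protein of endothelial cells and platelets, lies on the plus strand at chr9:37528078-37538320. It was at 35.6, 30.98, 16.6, 9.68 and 6.32 normalized counts in PBS and at 5.997, 8.14, 9.48, 13.2 and 33.8 in OVA. PBS replicates 1 and 2 and OVA replicate 10 stood apart at the upper end, and the remaining 7 libraries mixed. Esam was the 1 gene with a negative log2 fold change, -0.46 (SE 0.57, 95% interval -1.67 to 0.76), with means of 19.8 ± 12.9 (SD, n = 5) in PBS and 14.1 ± 11.3 (SD, n = 5) in OVA.

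Cd34, a sialomucin of endothelial and blood progenitor cells, came nearest to a difference between the groups. It lies on the plus strand at chr1:194938819-194961280. It was at 124, 237, 177, 222 and 207 normalized counts in PBS replicates 1 to 5 and at 390, 235, 181, 328 and 396 in OVA replicates 6 to 10. OVA replicates 6, 9 and 10 were above every PBS library, while OVA replicates 7 and 8 lay inside the PBS range. The means were 193 ± 44.6 (SD, n = 5) and 306 ± 95.2 (SD, n = 5), and the log2 fold change of Cd34 was 0.63 (SE 0.25, 95% interval 0.10 to 1.16). The exact two-sided permutation p was 0.0635, where 0.00794 is the smallest that 5 against 5 libraries allow, and the limma adjusted p was 0.414. The difference therefore did not pass the test. The gene Gm16897 overlaps Cd34 on the opposite strand and cannot be told apart from it here.

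Emcn encodes endomucin, a sialomucin of venous and capillary endothelium, and lies on the plus strand at chr3:137341067-137432186. It had 0 reads in PBS replicates 1 to 4 and 7 in PBS replicate 5, and 11, 5, 0, 2 and 4 reads in OVA replicates 6 to 10. Its reads were thus absent from 4 of 5 PBS libraries and from 1 of 5 OVA libraries, but 6 of the 10 libraries were at or under 3 reads. Emcn had the largest log2 fold change of the 9 genes, 1.24 (SE 0.74), with a 95% interval from -0.33 to 2.82, an exact permutation p of 0.167 and a limma adjusted p of 0.600. The means behind it were 1.26 ± 2.82 (SD, n = 5) and 3.39 ± 3.01 (SD, n = 5) normalized counts, from 7 reads in all PBS libraries and 22 in all OVA libraries.

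Erg, the transcription factor among the genes, lies on the minus strand at chr16:95359169-95586594. It was at 2.81, 17.2, 24.9, 4.30 and 4.51 normalized counts in PBS and at 15.0, 15.0, 9.48, 2.40 and 24.4 in OVA. The 24.9 of PBS replicate 3 rests on 9 reads, and the lowest value of all was in OVA replicate 9. The means of Erg were 10.8 ± 9.83 (SD, n = 5) and 13.3 ± 8.10 (SD, n = 5), and its log2 fold change was 0.43 (SE 0.67, 95% interval -0.998 to 1.85).

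**Figure D5:**
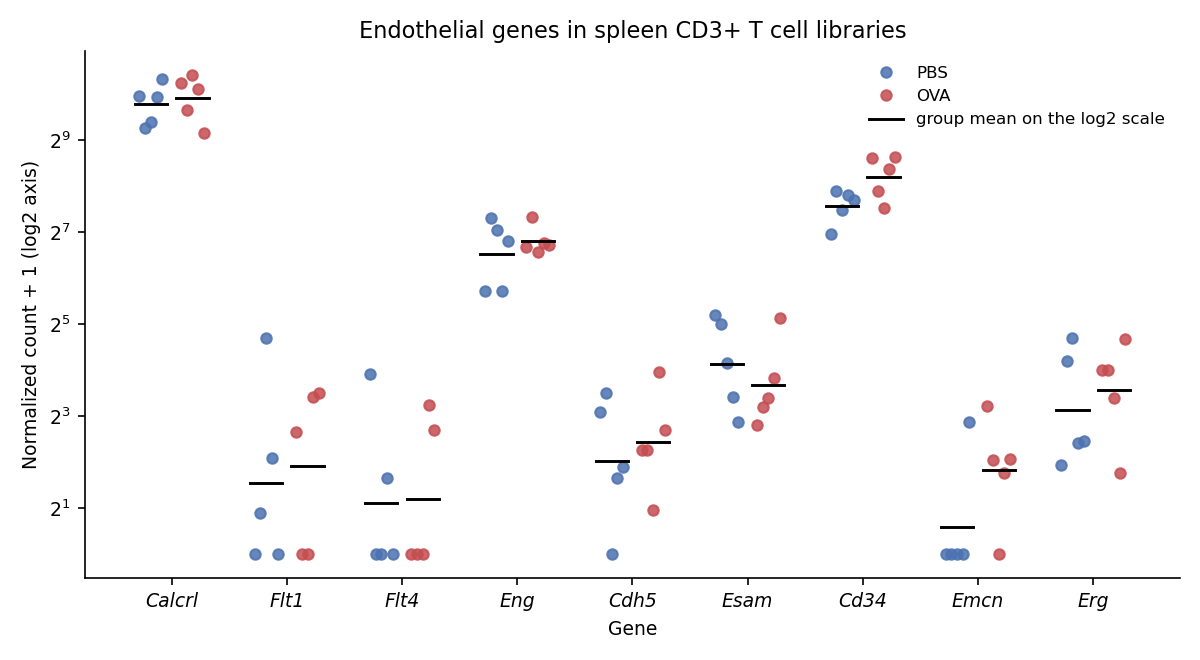
Normalized count + 1 (y axis, log2 scale) of each of the 9 genes (x axis) in the 5 PBS libraries (blue) and 5 OVA libraries (red), 1 point per library, with the group mean on the log2 scale (black lines). The points of the groups overlap in every gene, least so in Cd34 and Emcn.

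The 9 genes were also summed in each library. The sum of their normalized counts was 1218, 1066, 1041, 1273 and 1623 in PBS replicates 1 to 5 and 1742, 1219, 1658, 1584 and 1154 in OVA replicates 6 to 10. PBS replicate 5 lay above OVA replicates 7, 9 and 10, so that the groups overlapped. The means were 1244 ± 234 (SD, n = 5) and 1471 ± 267 (SD, n = 5), and Calcrl was the largest term in every library. The log2 ratio of these means, given with no test, was 0.24. It was 0.45 without Calcrl and 0.15 without Cd34, and 0.24 to 0.25 with any other gene left out. Cdh5, Emcn, Flt1 and Flt4, grouped after their levels were seen, were also summed. Their reads were 23, 13, 9, 7 and 10 in PBS and 23, 11, 1, 29 and 31 in OVA. The lowest and the 2 highest of these totals were all in OVA, also when scaled to library depth, at 0.386 to 1.32 CPM in PBS and 0.0510 to 1.97 CPM in OVA. OVA replicate 10 was the 1 library in which all 9 genes were above 3 reads, and in PBS libraries 5 or 6 of them were.

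The members were set beside other genes of endothelial cells. Of a list of 40 further endothelial genes, 27 were listed in the table, 25 were placed on a row with a probability of at least 0.9 and all 25 were tested. None passed adjustment or an unadjusted limma p of 0.05, none had groups that did not overlap, and the median log2 fold change was 0.15. Over all genes tested, 9.77% had such an unadjusted p. All OVA libraries lay above all PBS libraries in 1.42% of all genes and below them in 0.356%. Pecam1, an adhesion molecule of vessels that leukocytes also carry, was at 1781 ± 461 (SD, n = 5) in PBS and 2067 ± 223 (SD, n = 5) in OVA, and its log2 fold change was 0.26 (SE 0.18), at an adjusted p of 0.669 in limma. Of the genes less widely expressed, Tek, Tie1 and Vwf were lower than Pecam1. Tek and Tie1, the angiopoietin receptor and its relative, were at 10.2 and 17.7 normalized counts in PBS and at 13.9 and 10.7 in OVA, and Vwf, the clotting factor of endothelium and megakaryocytes, was at 34.8 in PBS and 21.8 in OVA. Of the 25 genes, 11 were above 3 reads in all 10 libraries, among them Pecam1, Tie1, Vwf, Cd93 and Ramp3. Cd93 was at 206 in PBS and 289 in OVA, and Ramp3 at 335 in PBS and 234 in OVA. Another 7 were above 3 reads in fewer than 5 libraries, among them Robo4, Plvap and Stab2. Kdr, the main receptor of vascular endothelial growth factor A, could not be placed with a probability of 0.9 and is given no value.

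The pathways of the receptors were described from a list by role. Over all genes tested, 9.77% had an unadjusted limma p under 0.05, which is the background for the counts below. Of 5 ligand genes tested, 0 passed adjustment and 2, Angpt1 and Angpt2, had an unadjusted limma p under 0.05, Angpt1 at 94.4 ± 33.4 (SD, n = 5) in PBS and 166 ± 48.7 (SD, n = 5) in OVA. Angpt2 had 23 reads in all and was above 3 reads in 1 library. Of 10 receptor and partner genes tested, 0 passed adjustment and 1, Notch1, had an unadjusted p under 0.05, at 606 ± 152 (SD, n = 5) in PBS and 828 ± 115 (SD, n = 5) in OVA. This 1 in 10 is near the share over all genes. Nrp1, a coreceptor of vascular endothelial growth factors, was at 398 ± 147 (SD, n = 5) and 471 ± 55.8 (SD, n = 5). Among the partners of Calcrl, Ramp1 was abundant, at 1862 ± 675 (SD, n = 5) in PBS and 1639 ± 349 (SD, n = 5) in OVA, whereas Ramp2, the partner known from endothelium, was at 6.11 ± 4.23 (SD, n = 5) and 12.7 ± 10.5 (SD, n = 5). Of 5 target genes tested, 0 passed adjustment and 1, Id3, had an unadjusted p under 0.05, at 1962 ± 631 (SD, n = 5) in PBS and 2569 ± 449 (SD, n = 5) in OVA. Angpt1, Angpt2, Notch1 and Id3 are named here because they were the genes behind these counts, after their values were seen. Ramp1 and the endothelial genes Cd93, Ramp3, Robo4, Plvap and Stab2 were also named after their values were seen.

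Markers of other cells differed in how they lay beside the endothelial genes. Of 9 fibroblast and reticular cell genes tested, 0 passed limma adjustment and 8 had an unadjusted limma p under 0.05. Over all genes tested, 9.77% had such a p. In 3 of the list (Pdgfrb, Dcn and Serping1) all OVA libraries lay above all PBS libraries, beside 1.42% of all genes tested. The median log2 fold change of the 9 fibroblast and reticular cell genes was 2.07. Their sum was 7.75 to 63.7 normalized counts per PBS library and 120 to 194 per OVA library, without overlap. Pdgfrb, a receptor of fibroblasts and mural cells, was at 29.0, 5.16, 27.7, 8.61 and 30.7 in PBS and at 64.5, 52.6, 46.5, 76.9 and 50.4 in OVA. Dcn, which encodes decorin, had 0 reads in 4 PBS libraries and 1 in PBS replicate 3, and 38, 50, 7, 10 and 30 reads in OVA, and Serping1, an inhibitor of complement, had at most 3 reads in every PBS library and 4 to 20 in OVA. The limma adjusted p of Dcn was 0.110. The paper used another test and called Dcn with DESeq2 at a false discovery rate of at most 0.05. It also reported increased Dcn RNA in CD4+ and CD8+ spleen T cells and increased decorin protein in T cell medium. Of 4 mural cell genes tested, none had groups without overlap, Myh11 did not rise above the floor in any library, and the sum was 6.46 to 58.5 in PBS and 11.4 to 45.7 in OVA. Of 11 genes of progenitors and megakaryocytes, cells in which Cd34, Esam and Erg are also known, 0 passed adjustment. In 1 of the 11 the unadjusted limma p was under 0.05, near the share of 9.77% over all genes. The median log2 fold change of this list was 0.32. Its sum was 1545 to 2138 in PBS and 1749 to 2552 in OVA, with overlap. Markers of other blood cells had medians away from 0 as well, with 0 genes past adjustment in each list and sums that overlapped. The share of 9.77% over all genes also stands beside the unadjusted counts of these lists. The 7 neutrophil genes had a median log2 fold change of 2.13, 3 of them with an unadjusted limma p under 0.05, and their sum was 6033 to 20756 in PBS and 9422 to 94775 in OVA. Mpo was the largest term of this sum in every library but OVA replicate 6, with 8526 of 8882 in PBS replicate 5 and 9046 of 9422 in OVA replicate 8. S100a8 was at 112 in PBS replicate 5. The Mpo row was placed with a probability of 0.975, which does not secure that it holds Mpo. Outside OVA replicate 6, the sum mainly describes that row. Mpo and S100a8 are named after their values were seen. The 6 B cell genes had a median of 1.31, with 2 under an unadjusted p of 0.05 and sums of 750 to 2455 in PBS and 777 to 6828 in OVA. The 10 macrophage genes had a median of 0.48, with 1 under that p and sums of 208 to 839 in PBS and 312 to 1269 in OVA. The 4 erythroid genes had a median of -1.86, with 2 under that p and sums of 259 to 2132 in PBS and 81.5 to 896 in OVA. The part of any of these cells in the levels of the 9 genes was not tested.

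The rows most like the 9 genes were sought by the Pearson correlation of their log2(normalized count + 1) with the mean of the 9 genes over the 10 libraries, among 13571 rows with a mean of at least 10. The 5 highest were Adgre4 (r = 0.90), Sulf2 (r = 0.89), Vwa5a (r = 0.88), 4930520O04Rik (r = 0.88) and Ftx (r = 0.88). Without OVA replicates 9 and 10 the correlation was 0.94 for Adgre4 but 0.68 for Sulf2, 0.58 for Vwa5a, 0.69 for 4930520O04Rik and 0.62 for Ftx, so that these 4 rest largely on those 2 libraries. Adgre4, an adhesion receptor of myeloid cells, was at 4.68, 12.1, 11.1, 3.23 and 1.81 normalized counts in PBS and at 21.0, 11.3, 0, 16.8 and 40.1 in OVA. As in the mean of the 9 genes, its highest library was OVA replicate 10 and its lowest OVA replicate 8. These are the highest of many correlations over libraries that share depth and composition, and are given with no p.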

How the data were processed

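RNA of spleen CD3+ T cells from 5 PBS-treated and 5 OVA-treated Nf1OPG mice was sequenced with 1 library per replicate from an unstranded kit. Per the labels, the authors aligned the reads with STAR 2.6.1d to mm10 and counted genes in Partek 9.0. The signal values deposited by the authors are normalized counts, i.e. counts divided by 1 size factor per library. All 10 libraries were used. The values are whole multiples of what a single read is worth (99.932% to 99.966% of them per library, to a tolerance of 0.1), which gave back the reads.

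The names are out of step with the values. The rows of the 9 genes were fixed by a rule giving the distance for each name, and the distances were checked with a hidden Markov alignment allowing -2 to 30 rows, a probability of 0.002 that the distance changes at a row, and 8 iterations, which used the annotation of the names (GENCODE M21, GRCm38) and mean levels but no groups. Genes of other lists were used where this alignment placed their name with a probability of at least 0.9. The members, lists and tests were chosen with earlier results of these data known.

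The test was limma 3.58.1 (R 4.3.3) on log2(normalized count + 1) with a variance trend, over genes with a mean of at least 1, with Benjamini-Hochberg adjustment over all of them. Such fold changes understate the change of low genes. Single genes also had an exact permutation test, two-sided, over all 252 ways to assign the libraries. Where replicates are not separate mice, p-values measure only the spread between libraries, which may be technical. The fits and the alignment were tested on simulated data. Alternatives were pseudocounts of 0.1 and 0.5, no minimum or a minimum mean of 5, each library at the same total, quantile normalization, array weights, tests of the recovered reads by edgeR 4.0.16 or DESeq2 1.42.0, each library left out in turn, and other rows for the members. Besides the 9 genes, the text names Kdr, Pecam1, Tek, Tie1, Vwf, Ramp2 and Nrp1, list genes whose groups do not overlap and the 5 rows most like the members, and says where others were named after their values were seen. Exonic lengths come from GENCODE M21 and promoters from RefSeq GRCm38.p6.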

Additional observations from a re-analysis of the deposited data

Results flagged for a closer look

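In 5 of 18 sets of 5 libraries (9 genes in 2 groups), a single library stood apart by Dixon's ratio of its gap to the whole range. The critical value was 0.71. It would flag about 0.9 of 18 sets by chance if values were normally distributed. Counts near 0 are not, so that the 5 sets are not read as an excess. The ratio was 1.0 for Emcn in PBS, where replicate 5 had 7 reads and the other 4 libraries had 0. For Flt1 in PBS it was 0.87, from the 9 reads of replicate 3, the shallowest library, and for Flt4 in PBS it was 0.847, from the 15 reads of replicate 1. For Eng in OVA it was 0.788, replicate 7 being at 159 normalized counts and the others between 92.9 and 107. For Esam in OVA it was 0.741, replicate 10 being at 33.8 and the others between 5.997 and 13.2. No library stood apart for more than 1 gene, and Calcrl, Cd34, Cdh5 and Erg had no such library.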

How the results depend on the processing

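None of the 9 genes passed adjustment under any of the 19 alternatives of filter, scaling, test or left-out library, nor with 3 other choices of row. The count of all genes that passed was 1, and became 0 with a pseudocount of 0.1 or quantile normalization, 2 with edgeR or array weights, 167 with DESeq2 and 0 to 135 with a library left out, the 135 without PBS replicate 5. Calcrl, Cd34, Emcn, Eng, Erg and Esam kept their direction in all of these alternatives that gave a value. With a minimum mean of 5, Emcn and Flt4 gave none. Flt4 reversed to -0.15 with quantile normalization, -0.35 with edgeR, -0.27 with DESeq2 and -0.15 with array weights, and ran from -0.44 to 0.77 with a library left out. Flt1 reversed to -0.10 with DESeq2 and ran from -0.022 to 1.16 with a library left out, and Cdh5 ran from -0.11 to 0.76. Emcn ran from 0.86 with quantile normalization to 3.01 with a pseudocount of 0.1. The cause was not tested. The row that carries the name as listed gave reversed values of -0.10 for Cdh5, -0.26 for Emcn, -0.13 for Erg, 1.00 for Esam and -0.032 for Flt4. The row 1 above gave -0.42 for Cd34, -0.17 for Emcn and 0.27 for Esam, and 1 gene without overlap of the groups. The row 1 below gave -1.32 for Cd34, -0.082 for Erg and 0.083 for Esam. These rows hold other genes. The alignment chose no other row for any member, so that alternative gave no value. Setting each library to the same total moved the median of all genes from 0.04 to 0.15. No paired analysis was possible because the groups share no replicate number. Depth limits Cdh5, Emcn, Flt1 and Flt4, whose reads number 29 to 56 in all.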
